A study of Drosophila melanogaster with 3 samples.

Results

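The cytosolic ribosomal protein genes of the large subunit in Drosophila melanogaster were taken as all protein-coding genes of the Ensembl BDGP 6.54 annotation whose symbol starts with RpL and a digit, or with RpLP. The mitochondrial mRpL genes were not included. The rule gave 54 of 13968 protein-coding genes. The ribosome makes proteins from messenger RNA. Its large subunit holds the site where peptide bonds form, the tunnel through which the new chain leaves and a flexible stalk that recruits translation factors. Each subunit protein is needed in matching amounts, the genes are among the most strongly transcribed of growing cells, and in flies the loss of a single copy of many of them gives the Minute phenotype of slow development and thin bristles. Their transcripts often start within a stretch of pyrimidines, the TCT initiator, which differs from the usual initiator of other genes.

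The measurement was chromatin immunoprecipitation with sequencing (ChIP-seq), which reads the DNA recovered together with a protein. The protein was CG10274, a C2H2 zinc-finger protein, tagged with GFP at its C-terminus and expressed from a stable transgene, and it was recovered with an antibody against GFP. Whole embryos of mixed sex and of 0 to 24 h were used, and chromatin was sonicated to 200 to 800 bp. By the labels the 3 samples are biological replicates of 1 group from 1 transgenic line, with no second genotype, treatment or stage. Signal from all embryonic cell types and ages is averaged, so binding in fewer cells cannot be told apart from weaker binding in each, and the control data set that the labels name was not analysed here. The deposited files are peak lists on the dm6 genome: 30000 scored entries for each replicate, 30000 for the pooled replicates, and a list of 2988 reproducible peaks, called the combined list here. The combined peaks were the 2988 highest-scoring entries of the pooled list. Scores give no read counts, so how deeply each replicate was sequenced is unknown. All 95% Wilson intervals below cover the counting of genes or peaks only.

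Promoters of RpL genes are shown first, because the peaks sit on them. Each line below runs 5′ to 3′ on the gene's strand from 60 bases before the transcription start site (TSS) to 28 bases after it, 89 bases in all, read from the release 6 (dm6) reference genome. The capitals mark the word CACACT and its reverse complement (AGTGTG), the word CCGGAA and its reverse complement (TTCCGG), and the pyrimidine word TTCTTT, which are counted further on. RpL7 (chr2L:10200944-10201032, plus strand), RpL23A (chr3L:1668626-1668714, minus strand) and RpL14 (chr3L:8600946-8601034, plus strand) had the 3 highest-ranked RpL peaks.
RpL7: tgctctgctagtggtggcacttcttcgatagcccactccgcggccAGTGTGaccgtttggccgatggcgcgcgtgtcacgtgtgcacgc
RpL23A: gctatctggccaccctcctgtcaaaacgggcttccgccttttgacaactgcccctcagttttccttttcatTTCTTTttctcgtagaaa
RpL14: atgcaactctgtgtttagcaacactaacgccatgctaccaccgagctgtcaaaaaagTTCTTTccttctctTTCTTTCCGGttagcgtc

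RpL8 (chr3L:2587396-2587484, plus strand), RpL35A (chr3R:5467073-5467161, minus strand) and RpL18 (chr3L:7241323-7241411, minus strand) had peaks of middle rank, and each promoter holds all 3 recurrent words in the same order.
RpL8: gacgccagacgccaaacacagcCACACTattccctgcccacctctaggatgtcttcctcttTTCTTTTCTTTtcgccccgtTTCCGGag
RpL35A: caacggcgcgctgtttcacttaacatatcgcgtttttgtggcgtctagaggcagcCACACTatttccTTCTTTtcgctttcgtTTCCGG
RpL18: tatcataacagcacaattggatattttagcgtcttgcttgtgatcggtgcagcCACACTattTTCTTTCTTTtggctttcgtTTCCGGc

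RpL10Ab (chr3L:11822791-11822879, plus strand) and RpL10Aa (chr3R:15037306-15037394, plus strand) code for versions of the same subunit protein, and only RpL10Ab had a combined peak. RpL40 (chr2L:4227639-4227727, plus strand) and RpL5 (chr2L:22536856-22536944, minus strand) had none.
RpL10Ab: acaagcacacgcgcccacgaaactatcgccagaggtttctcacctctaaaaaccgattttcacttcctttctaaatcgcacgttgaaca
RpL10Aa: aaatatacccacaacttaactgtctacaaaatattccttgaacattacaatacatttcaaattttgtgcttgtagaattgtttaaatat
RpL40: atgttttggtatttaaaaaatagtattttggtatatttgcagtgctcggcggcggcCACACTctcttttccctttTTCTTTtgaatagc
RpL5: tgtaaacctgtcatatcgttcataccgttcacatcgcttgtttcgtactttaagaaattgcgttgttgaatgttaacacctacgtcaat

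A gene was counted as carrying a peak where a summit, the position of highest signal in a peak, lay within 500 bp of any of its annotated TSSs. In the combined list this held for 40 of 54 RpL genes (74.1%, 95% Wilson interval 61.1 to 83.9), beside 11.1% of all protein-coding genes. Among protein-coding genes other than RpL genes it held for 1507 of 13914 (10.8%). Of the 39 small-subunit genes (RpS genes and sta), whose products form the subunit that reads the messenger RNA, 23 had a peak (59.0%, 43.4 to 72.9). The intervals of the 2 subunits overlap.

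Each replicate was then read by itself, on its 2988 highest-scoring entries, called its top peaks. A top peak lay at 38 RpL genes in replicate 1 (70.4%), at 38 in replicate 2 (70.4%) and at 25 in replicate 3 (46.3%), beside 11.1%, 10.6% and 7.93% of all protein-coding genes. Replicate 3 was lowest for RpL genes, for RpS genes and for all other genes. The RpL share was 62.3% ± 13.9 (SD, n = 3), the RpS share 50.4% ± 10.7 and the share of all other protein-coding genes 9.68% ± 1.66.

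The RpL share exceeded that of other genes by 59.5, 59.99 and 38.5 percentage points in replicates 1, 2 and 3. The mean difference was 52.7 points ± 12.3 (SD, n = 3; two-sided exact sign-flip permutation test, p = 0.25), larger than its spread over replicates and in the same direction in 3 of 3. With 3 replicates 0.25 is the smallest p this test can give. The RpL share exceeded the RpS share by 16.5, 11.4 and 7.83 points (11.9 ± 4.37, n = 3; exact p = 0.25).

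**Figure D1:**
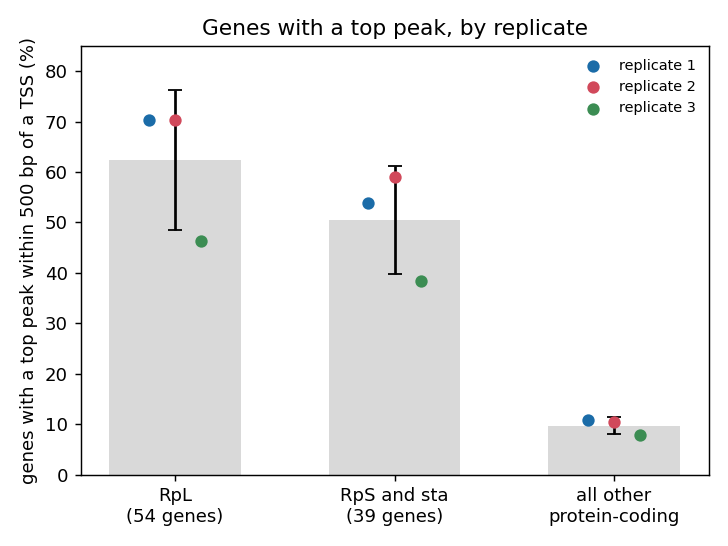
Share of genes with a summit among the replicate's top 2988 peaks within 500 bp of a TSS (y axis, percent) for RpL genes, RpS genes with sta, and all other protein-coding genes; points are replicates, bars the mean and error bars the SD (n = 3). Every RpL point, from 46.3% to 70.4%, lies above every point of the other genes, and replicate 3 is the lowest point of each group.

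Of the 40 RpL genes with a combined peak, 22 had a top peak in all 3 replicates and 14 in 2. RpLP0-like and RpL26 had one in 1 replicate only, and RpL35 and RpL3 in none, so these 4 were backed by at most 1 replicate at that depth of list. Counted by peak, 56.1% of the RpL combined peaks overlapped a top peak of every replicate. This was close to the 51.8% of other promoter peaks and the 50.3% of all combined peaks. The support by pairs of replicates was uneven. Counting only combined peaks backed by the top peaks of both other replicates, 35 RpL genes were left without replicate 3, but 23 without replicate 1 and 22 without replicate 2. Under the same requirement the share of other protein-coding genes fell too, from 10.8% to 7.54%, 6.17% and 5.65%.

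Other genes of protein synthesis were read in the same way. Of 8 translation elongation factor genes 4 had a combined peak, namely eEF1gamma at rank 265, eEF1alpha1 at rank 1012, eEF5 at rank 1235 and eEF2 at rank 1647. In the replicates' top peaks 3, 4 and 1 of these 8 genes were found. On a list of 22 genes named as assembly factors of the large subunit or its RNA, 3 had a combined peak (13.6%, 4.75 to 33.3), beside the 11.1% of all protein-coding genes. In the replicates' top peaks it was 6, 3 and 1 of the 22 (27.3%, 13.6% and 4.55%). The 3 with a combined peak were eIF6, which keeps the unfinished large subunit from joining the small one, at rank 110, Rrp1 at rank 736 and nop5, part of the particles that modify ribosomal RNA, at rank 2892. Their summits lay at -124, -190 and -180 bp from the TSS (negative upstream). Whether the TSS of a neighbouring gene was nearer was not examined for them. In flies Rrp1 names a DNA repair enzyme, so its place in the list is doubtful.

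The RpL peaks were of middle to high rank but not among the strongest. The 40 genes carried 41 summits. Their ranks in the combined list ran from 170 to 2981 with a median of 996, against a median of 1061.5 for the 24 RpS summits and 1357 for the 1251 summits at other promoters. With the combined list cut into 4 equal blocks from strongest to weakest, the blocks held 17, 14, 6 and 4 RpL summits. Only 1, at RpL7, was among the strongest 298.

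Scores are not on the same scale in the replicate lists. Each score was therefore divided by the replicate's median over the 2292 combined peaks that all 3 replicates list (112.5, 74.9 and 56.3). A relative score of 1 is thus the median of the combined peaks listed in every replicate, not of all combined peaks. Over the 24 RpL peaks listed in all 3 replicates the median relative score was 1.58, 1.65 and 1.63, a mean of 1.62 ± 0.0374 (SD, n = 3). The 14 such RpS peaks gave 1.30 ± 0.0930 and the 901 such peaks at other promoters 1.12 ± 0.0122. The RpL values lay above the other promoters in each replicate. These medians cover only the peaks strong enough to be listed 3 times, and the RpL value was 2.18 over the 14 peaks that overlap reciprocally by 50%. Across RpL peaks, which share their libraries, Spearman's rho between relative scores was 0.784 for replicates 1 and 2 (41 peaks), 0.548 for 1 and 3 and 0.722 for 2 and 3 (24 peaks each). Across all combined peaks listed in both it was 0.644, 0.724 and 0.801.

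RpL7 (FBgn0005593, arm 2L, 10201004 to 10202321, plus strand), whose product binds ribosomal RNA in the body of the subunit, had the highest RpL peak at rank 170. Its relative scores by replicate number were 2.96, 4.78 and 3.55 (3.77 ± 0.928, SD, n = 3), and its summit lay in the exon at +29 bp. All 3 values are above those of every other RpL gene in the same replicate.

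RpL23A (FBgn0026372, arm 3L, 1666288 to 1668654, minus strand) codes for a protein beside the mouth of the exit tunnel, where chaperones and the signal recognition particle dock. It followed at rank 347 with 1.64, 2.58 and 3.03 (2.42 ± 0.712), with its summit at -75 bp from the TSS. RpL14 (rank 360, position -30 bp) had 1.56, 3.07 and 1.91 (2.18 ± 0.792). In both genes replicate 1 was lowest.

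RpL41 (rank 374, -45 bp), a very short peptide at the bridge between the subunits, had 1.73, 2.83 and 2.13 (2.23 ± 0.555). RpL13A (rank 391, -31 bp) had 1.76, 2.74 and 1.96 (2.15 ± 0.515). The means of these genes differ by less than the spread of either.

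RpL32 (rank 394, -116 bp), known as rp49 and widely used as a reference gene in fly expression work, had 1.76, 2.66 and 0.716 (1.71 ± 0.975). Its spread relative to the mean, a coefficient of variation of 56.9%, was the largest among RpL genes with values in all 3 replicates. Its value in replicate 3 was below 1, the median of the combined peaks listed in every replicate. The entries behind these values did not share a summit, which lay at -56, -188 and -270 bp, and in replicates 2 and 3 it was nearer to the divergent gene CG7943 (-121 and -39 bp from its TSS). RpL24 (rank 398, -10 bp), which forms a bridge between the subunits, had 1.73, 2.26 and 2.16 (2.05 ± 0.282). Among RpL genes with values in all 3 replicates, differences were smallest at RpL19 (rank 445), with 1.92, 1.98 and 2.10 (2.00 ± 0.09225, coefficient of variation 4.62%).

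The stalk genes span a wide range. RpLP0, the stalk's base (arm 3L, 22075867 to 22077487, plus strand, rank 415), had 1.87, 2.54 and 1.63 (2.01 ± 0.474), with the summit 19 bp upstream of the downstream TSS at 22076092. RpLP1 (rank 1288, +4 bp) had 1.13, 0.725 and 0.666 (0.842 ± 0.255), and RpLP2 (rank 1693, -25 bp) had 0.802 and 0.960 with no peak listed in replicate 3. RpLP0 was above RpLP1 in each of the 3 replicates.

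Among RpL genes with values in all 3 replicates, those that varied most after RpL32 were RpL23, RpL34a, RpL14 and RpLP1. RpL23 (rank 2066) had 0.281, 0.655 and 1.01 (0.650 ± 0.366, coefficient of variation 56.3%), with replicate 3 the highest. Its value in replicate 1 comes from an entry at rank 12878 of that list, where entries include background. RpL34a had 1.59, 1.10 and 0.588 (1.09 ± 0.502, coefficient of variation 46.0%), with replicate 3 the lowest. The summit of that last entry lay at -122 bp, against -5 and 0 bp in replicates 1 and 2, and was nearer to Trmt61 (-107 bp). At RpLP1 the entry of replicate 3 lay at -156 bp, against +16 and +1 bp, and was nearer to CG13690 (-144 bp). These spreads therefore include changes in which summit was scored. Of the RpL entries scored, 0, 1 and 3 were nearer to a neighbour in replicates 1, 2 and 3.

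At the low end were RpLP0-like (rank 2545), RpL35 (rank 2658), RpL26 (rank 2769) and RpL3 (rank 2981). RpL3 (FBgn0020910, arm 3R, 11221894 to 11225173, plus strand), whose product reaches toward the peptidyl transferase centre, had 0.575 and 0.461. RpL35 had 0.558 and 0.525, and RpL26 had 0.949 and 0.343. The second RpL26 value comes from an entry at rank 7047. Replicate 3 listed none of the 4, and every value is below 1. The last RpL gene inside the combined list was thus RpL3 at rank 2981 of 2988, and the nearest outside it was RpL29 at pooled rank 3015.

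**Figure D2:**
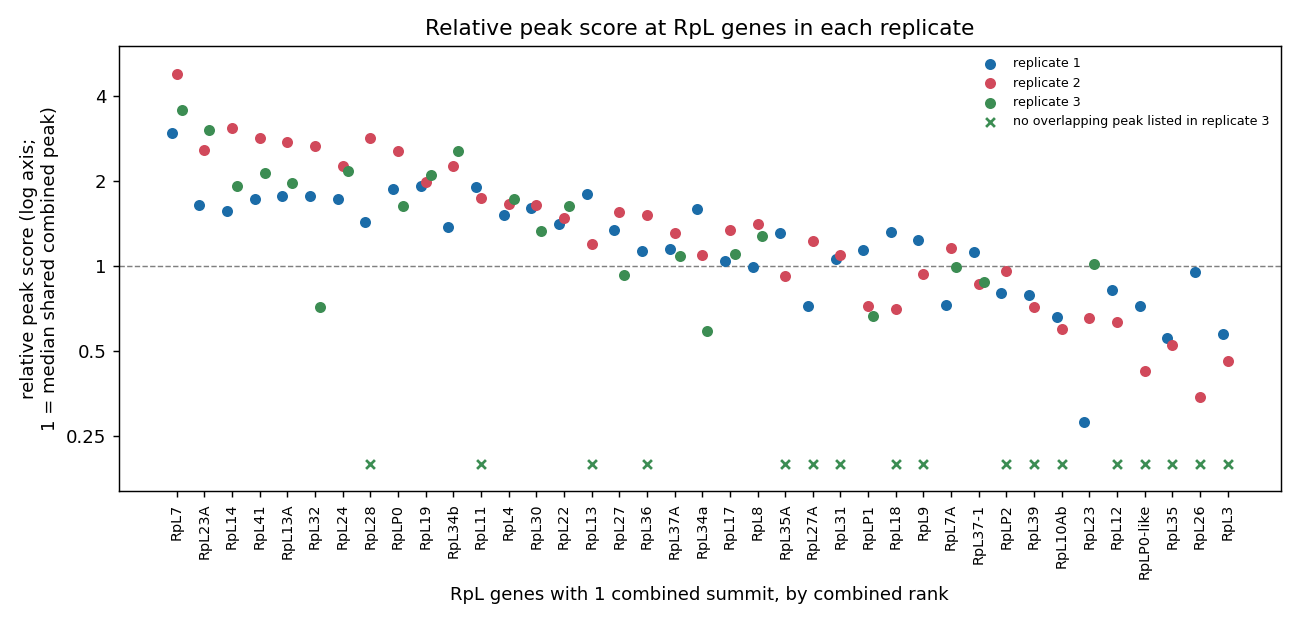
Relative peak score (y axis, log scale; 1 is the median combined peak listed in all 3 replicates) at the 39 RpL genes with 1 combined summit, ordered by combined rank, with 1 point per replicate and crosses where replicate 3 lists no overlapping peak. RpL7 is highest in every replicate, and crosses become more frequent toward the right, where ranks are lower.

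Replicate 3 lacked many RpL peaks outright. Replicates 1 and 2 each listed an entry overlapping all 41 RpL combined peaks, but replicate 3 listed 24 (58.5%, 43.4 to 72.2). Not all of these entries were strong: 38, 37 and 24 of the 41 (92.7%, 90.2% and 58.5%) were among the top peaks of replicates 1, 2 and 3. The same shares were 82.3%, 84.6% and 63.9% for other promoter peaks and 78.8%, 83.4% and 66.2% for all combined peaks. The RpL share was thus the higher one in replicates 1 and 2 and the lower one in replicate 3. For the RpS peaks replicate 3 listed 14 of 24 (58.3%), for other promoter peaks 918 of 1251 (73.4%) and for all combined peaks 2351 of 2988 (78.7%).

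The gap was widest at the lower ranks. Of the 20 higher-ranked RpL peaks (ranks 170 to 946) replicate 3 listed 16 (80.0%), and of the other combined peaks in those ranks 86.7%. Of the 21 lower-ranked ones (ranks 996 to 2981) it listed 8 (38.1%), against 74.4% of the other combined peaks there. The windows of 50 bases on either side of RpL summits were richer in G and C, with a median of 48.5% against 34.7% at other promoter summits. RpS summits had a median of 50%, and other promoter summits within 50 bp of a TSS 43.6%. Between 45.5% and 51.5%, the middle range of the RpL windows, replicate 3 listed 9 of 21 RpL peaks (42.9%) and 252 of 335 other combined peaks (75.2%). The peaks within that range were not matched for rank, and whether base composition accounts for the gap was not tested.

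RpL summits lay very close to the TSS. In the combined list their median position was -19 bp (quartiles -44 and -6 bp, negative upstream), and 32 of 41 (78.0%) were within 50 bp of a TSS. RpS summits had a median of -21.5 bp with 75% within 50 bp. Summits at other protein-coding promoters had a median of -132 bp, and 155 of 1251 (12.4%) were within 50 bp.

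The same held in each replicate's own top peaks. The RpL median was -9.5, -21 and -43 bp in replicates 1, 2 and 3 (-24.5 ± 17.0, SD, n = 3), and that of other genes -110.5, -125 and -157 bp (-131 ± 23.8). The RpL median was nearer the TSS by 101, 104 and 114 bp, a mean of 106 bp ± 6.81 (n = 3; two-sided exact sign-flip permutation test, p = 0.25, the smallest possible). Both medians were nearest to the TSS in replicate 1 and farthest in replicate 3, and the difference varied less than either median. The RpL and RpS medians differed by -8.67 bp ± 11.1 (n = 3, exact p = 0.5), within the spread over replicates.

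**Figure D3:**
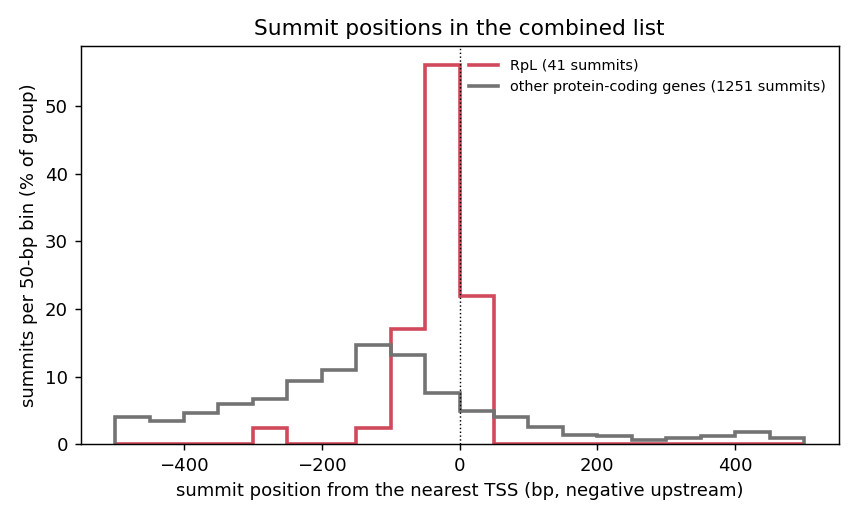
Summit position from the nearest TSS (x axis, bp, negative upstream) in the combined list for 41 RpL summits and 1251 summits of other protein-coding genes, as the percent of each group per 50-bp bin. The RpL summits stand in a narrow block at the TSS with a median of -19 bp, whereas those of other genes spread over the upstream side with a median of -132 bp.

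By annotation, 24 of the 40 best RpL summits lay upstream of the gene, 14 in an exon and 2, at RpL35 and RpL26, in an intron just before a downstream TSS. Summits of the same gene moved by a median of 16 bp between replicates 1 and 2 (40 genes), 27 bp between replicates 1 and 3 (23 genes) and 21 bp between replicates 2 and 3 (23 genes). The RpL and RpS peaks were narrow, with median widths of 254 and 251.5 bp against 404 bp for other promoter peaks. A width of exactly 404 bp was given to 12 of 41 RpL peaks, 7 of 24 RpS peaks and 1790 of the 2988 combined peaks. Of the 1790, 1788 had the summit at the middle to within 2 bp, including all of the RpL and RpS ones. At the 28 RpL genes with a narrower peak the median position was also -19 bp.

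Many RpL promoters are shared with a neighbour. Of the 41 summits 20 lay within 500 bp of the TSS of another protein-coding gene too, and 2 of these were closer to the neighbour. Of the 2, 1 was the summit at -81 bp of RpLP0-like, which lay 6 bp upstream of 14-3-3zeta. At the other 18 the RpL gene was the nearer one. RpL13 (-9 bp) stands opposite Dref (-75 bp), which codes for a factor that binds the DNA replication-related element, RpL14 (-30 bp) opposite Nelf-E (-97 bp), a subunit of the complex that pauses RNA polymerase, and RpL28 (-54 bp) opposite eIF1 (-327 bp). Giving each summit only to its nearest gene left 39 RpL genes, without RpLP0-like.

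A divergent TSS within 500 bp was annotated at 22 of 54 RpL genes (40.7%), at 38.5% of RpS genes and at 26.3% of other protein-coding genes. It was annotated at 19 of the 40 RpL genes with a peak and at 3 of the 14 without. Of the 20 higher-ranked RpL genes 13 had another gene's TSS within 500 bp of the summit, and of the 20 lower-ranked ones 6. Small nucleolar RNA genes, whose products guide chemical marking of ribosomal RNA, lay inside 16 of 54 RpL genes. Of these 16, 13 had a peak, beside 40 of all 54. This count was not made for RpS or other protein-coding genes. The RpL and RpS genes were short, with medians of 1315 and 1356 bp against 2170.5 bp for other protein-coding genes.

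Some RpL genes have a related copy elsewhere in the genome. The 6 genes RpL7-like, RpL10Aa, RpL22-like, RpL24-like, RpL37-2 and RpLP0-like were set apart as copies, a choice made after the values were seen. Of these 6 genes 1 had a combined peak, and of the other 48 RpL genes 39 (81.2%, 68.1 to 89.8). The partners all had one. RpL22 on X (rank 666, -65 bp) had 1.40, 1.48 and 1.63 (1.505 ± 0.116), whereas RpL22-like, a version used in the male germline, had no entry within 500 bp of a TSS in any list.

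RpL10Ab (rank 2052, -35 bp) had 0.660 and 0.6002, with none in replicate 3, and RpL10Aa had no entry. RpL37-1 (rank 1548, +39 bp) had 1.12, 0.866 and 0.875 (0.955 ± 0.147), and RpL37-2 had an entry only in replicate 3, at rank 10501 and -427 bp. RpL24 was described above, and RpL24-like, the counterpart of a yeast protein that helps build the subunit, had entries at rank 7367 in replicate 1 and 26655 in the pooled list. RpL7-like, whose yeast counterpart also acts in assembly, had an entry at rank 5120 in replicate 1, at -461 bp. Entries this far down the lists include background and, with no combined peak over them, were not read as binding.

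RpLP0-like, related to a yeast assembly factor that resembles P0, had 0.724 and 0.424, with none in replicate 3. Its combined summit is the one nearer to 14-3-3zeta. The entries of replicates 1 and 2 lay at -37 and -25 bp, nearer to RpLP0-like than to 14-3-3zeta (-50 and -62 bp). RpL34a and RpL34b both had a peak with a top peak in all 3 replicates. RpL34b (rank 498, -60 bp) had 1.37, 2.26 and 2.55 (2.06 ± 0.614), and RpL34a (rank 996, -31 bp) the values given above. RpL34a was higher in replicate 1 and RpL34b in replicates 2 and 3, so their order was not the same in each.

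The 14 RpL genes without a combined peak comprised 12 with an entry lower down in at least 1 list and 2, RpL10Aa and RpL22-like, with none. RpL29 missed narrowly, at pooled rank 3015, rank 3054 in replicate 1 and rank 2882 in replicate 2, with summits at -15 and -28 bp. RpL36A was at pooled rank 4868, at 2599 in replicate 1 and at 20713 in replicate 2. RpL40, made as a fusion with ubiquitin, had an entry at rank 7587 in replicate 1 only. RpL6 was at rank 4174 and RpL10, a protein that joins the subunit late, at rank 4189 of replicate 1.

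RpL38, RpL15 and RpL5 ranked higher in replicates 2 and 3 than in the pooled list. RpL38 had no entry in the pooled list and none in replicate 1, but ranked 2155 in replicate 2 and 1521 in replicate 3, within the top peaks of both, at -50 and -89 bp. RpL15 ranked 1929 in replicate 3, 4564 in replicate 2 and 13143 in the pooled list, at -75 and -38 bp in replicates 3 and 2. RpL5, which carries the 5S RNA into the subunit, ranked 3162 in replicate 2, 4846 in replicate 3 and 8727 in the pooled list, and was not listed in replicate 1. RpL21 had a single entry at rank 29426 of replicate 2, at +358 bp.

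RpL15, RpL5 and RpL38 are known as genes that lie in or beside pericentric heterochromatin, the condensed repeat-rich DNA around centromeres. Counted from the centromere-side end of the arm in the reference, RpL15 lay at 0.843 Mb, RpL5 at 0.977 Mb, RpL21 at 1.27 Mb, RpL30 at 4.50 Mb, RpL38 at 4.52 Mb and RpL10 at 5.01 Mb. Of these 6 genes within 5.1 Mb, a limit chosen after the values were seen, only RpL30 had a combined peak (rank 638). In the top peaks of replicates 1, 2 and 3, 1, 2 and 3 of the 6 were found. Of all 682 protein-coding genes in these stretches 53 had a combined peak (7.77%), against 11.2% elsewhere. In the top peaks of the replicates these shares were 8.06% against 11.3%, 8.50% against 10.7% and 7.48% against 7.96%. Every 31-base word within 250 bp of the most upstream TSS was unique in the genome at all 14 genes without a peak. The same held at 38 of the 40 RpL genes with a peak and at 93.4% of other protein-coding genes. Whether reads mapped less well at the genes without a peak was not tested.

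**Figure D4:**
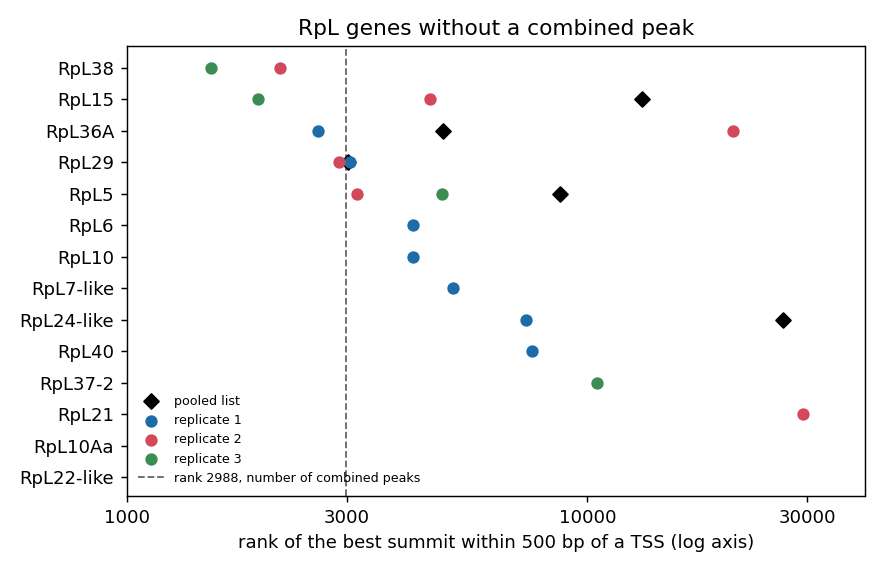
Rank of the best summit within 500 bp of a TSS (x axis, log scale) for the 14 RpL genes without a combined peak, in the pooled list (diamonds) and the 3 replicate lists (circles); the dashed line is rank 2988. RpL38, RpL15, RpL36A and RpL29 have a replicate entry left of the line, and RpL10Aa and RpL22-like have no point.

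All 6 RpL genes on X had a combined peak, 8 of 13 on arm 2L, 10 of 14 on 2R, 8 of 10 on 3L and 8 of 11 on 3R. Of all protein-coding genes on these arms 11.5%, 10.8%, 10.5%, 11.4% and 11.5% had one.

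The promoters were then searched for known core elements at the most upstream TSS. The letters TCTTT, taken for the TCT initiator, started within 10 bases of the TSS on the gene's strand in 21 of 54 RpL genes (38.9%, 27.0 to 52.2), in 35.9% of RpS genes and in 2.71% of all other protein-coding genes. The share was 17 of 40 among RpL genes with a combined peak and 4 of 14 among those without. A TATA box, TATAAA from 50 to 10 bases upstream on the gene's strand, was found at 1 RpL gene, RpL39 (1.85%), at 0 of 39 RpS genes, which allows a share of up to 7.69%, and at 10.1% of other genes.

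The other elements were searched on both strands from 250 bases upstream to 50 downstream. TATCGATA, the DNA replication-related element (DRE), was found at 27.8% of RpL genes, 33.3% of RpS genes and 9.29% of other genes. GGTCACAC, the core of the element called Motif 1, was found at 16.7%, 15.4% and 7.66%. CACGTG, the E-box, was found at 14.8%, 2.56% and 4.19%. GAGAG, the GAGA element, was found at 22.2%, 10.3% and 29.8%. For the DRE the share was nearly the same in RpL genes with a peak (27.5%) and without (28.6%). A match is a run of letters and not a measured site.

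**Figure D5:**
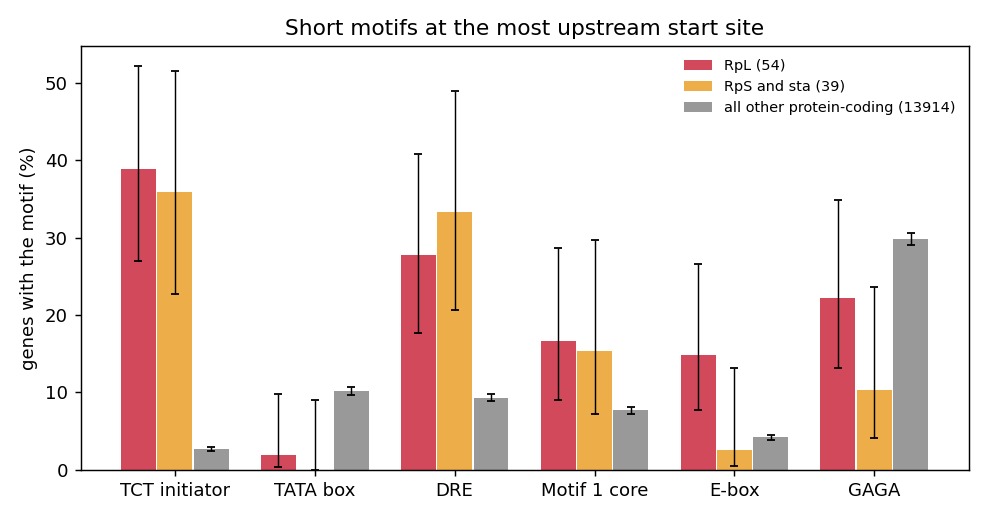
Percent of genes holding each core element at the most upstream TSS (y axis) for 54 RpL genes, 39 RpS genes with sta and 13914 other protein-coding genes; error bars are 95% Wilson intervals. The TCT initiator stands at 38.9% of RpL genes against 2.71% of other genes, and the DRE at 27.8% against 9.29%.

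Words of 6 bases, strands joined, were counted within 50 bases of each summit. Taken were the 5 words most raised and the 3 most lowered in share at RpL peaks relative to other promoter peaks, so the shares describe the choice and carry no test. CCGGAA, read as TTCCGG on the other strand, was in 19 of 41 RpL windows (46.3%), 20.8% of RpS windows and 3.12% of other promoter windows. Among the 155 other promoter summits within 50 bp of a TSS it was in 9.68%, and among the 298 strongest peaks outside the ribosomal protein genes in 1.01%. CGGAAA, which overlaps it by 5 bases, was in 48.8% of RpL windows, 29.2% of RpS windows and 5.596% of other promoter windows. Among the 155 near the TSS it was in 12.3%.

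AGTGTG, read as CACACT on the other strand, was in 36.6% of RpL windows, 20.8% of RpS windows, 6.31% of other promoter windows and 14.2% of the 155 near the TSS. AAAGAA, whose reverse complement TTCTTT holds the TCT letters, was in 43.9%, 33.3%, 13.2% and 9.68%. AAAAGA, which overlaps it, was in 41.5% of RpL windows and as many RpS windows (41.7%), against 12.55% of other promoter windows and 7.10% of the 155. The 3 most lowered words were all made of A and T. TAAATA was in 0 of 41 RpL windows, which allows a share of up to 7.32%. It was in 4.17% of RpS windows, 27.0% of other promoter windows and 14.2% of the 155.

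Placed against the TSS, most matches of CACACT and TTCCGG lay on the gene's strand, and the median positions followed the order seen in the promoters of RpL8, RpL35A and RpL18 printed above. From 100 bases upstream to 60 downstream of the TSS nearest the summit, TTCCGG stood on the gene's strand in 21 of 40 RpL genes, at a median of +22 bp, and CCGGAA in 3. CACACT stood on the gene's strand in 14, at a median of -26 bp, and AGTGTG in 2, of which RpL7 is the strongest peak. TTCTTT stood in 28, at a median of +4 bp. On either strand CCGGAA was found at 22 of 40 RpL genes with a peak and, around the most upstream TSS, at 4.28% of other protein-coding genes. CACACT was found at 16 of 40 and 14.7%.

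The words were not gathered at the strongest RpL peaks. Of the 20 higher-ranked genes 7 had CCGGAA in the summit window, 5 had CACACT and 4 had TTCTTT. Of the 20 lower-ranked genes 12, 10 and 14 had them. These counts describe the summit windows and not the promoters, since the windows follow the summits. The median summit position was -24.5 bp in the higher-ranked genes and -13.5 bp in the lower-ranked ones. RpL41 (+4 bp), RpL28 (+3 bp) and RpL22 (+4 bp), all higher-ranked, held TTCTTT near the TSS but outside the window. So did the higher-ranked RpL32 (+1 bp), RpL34b (+6 bp), RpL4 (+6 bp) and RpL23A (+11 bp). In RpL24 (+39 bp) and RpL19 (+40 bp), higher-ranked as well, it lay farther downstream and was not in the window either. Of the lower-ranked genes only RpL26 (+9 bp) held it outside the window. RpL23A, at rank 347, had none of these words within 50 bases of its summit, and RpL10Ab none in the stretch printed. RpL40, without a combined peak, held CACACT and TTCTTT in the stretch printed, RpL5 and RpL10Aa none.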

How the data were processed

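Peaks came as narrowPeak lists on dm6: 1 per replicate, 1 for the pooled replicates and 1 of reproducible peaks. The authors' deposited peak score has no fixed range and was used to rank entries and, scaled as described above, to compare replicates. Aligner, peak caller and settings were not given in the sources used here, and scores carry no depth. The dm3 lists were not used. Summits were assigned to TSSs of Ensembl release 115 (BDGP 6.54), and sequences were read from the RefSeq copy of the release 6 genome. Assignment, tested on simulated data over 13968 genes, recovered 200 of 200 planted summits. Replicate overlap needed 1 bp. Differences over replicates were tested with exact two-sided sign-flip permutation tests.

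The members and the other gene lists were chosen with earlier results of these data known. Named are the 8 highest and 4 lowest combined peaks, copies, stalk genes and up to 8 genes without a combined peak by pooled rank. Also named are the 5 most variable genes among those with values in all 3 replicates. Other genes were named after their values were seen. The values of 1 RpL gene with a combined peak are counted in the totals and not reported here by name. Of 26 assembly factor symbols 22 matched the annotation. Alternatives varied the TSS window, the number of top peaks, the assignment, the scaling and the replicates used. Computations ran in Python 3.11.15 with pandas 2.3.3, scipy 1.17.1 and numpy 2.4.6, and plots used matplotlib 3.10.9.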

Additional observations from a re-analysis of the deposited data

How the results depend on the processing

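The count of RpL genes with a combined peak, 40, stayed between 39 and 40 with a TSS window of 250 or 1000 bp, the nearest gene only, the most upstream TSS only or an interval covering the TSS, and was 30 in the 1494 strongest combined peaks. The share of other protein-coding genes, 10.8% in the main setting, was 7.95% and 13.3% with windows of 250 and 1000 bp. It was 8.23% for the nearest gene only, 8.93% for the most upstream TSS and 5.80% for the covering interval. In the 1494 strongest combined peaks it was 6.14%. Requiring top peaks in both other replicates, the RpL count ranged from 22 to 35 and the share of other genes from 5.65% to 7.54%. Both were lowest without replicate 2. The RpL share minus that of other genes ranged from 33.4 points with the top 1000 peaks to 54.7 with a window of 250 bp, and from 49.0 to 59.7 leaving out each replicate. The position difference ranged from 74.3 bp with a window of 250 bp to 133.5 bp with the top 1000 peaks, and from 102.5 to 109 bp leaving out each replicate. Both kept their direction in every setting tried. The median relative score, 1.62, was 1.85 scaled by each replicate's own top peaks, 2.18 with a reciprocal overlap of 50% (14 peaks remained) and 1.42 to 1.66 leaving out each replicate; without replicate 3 it covers 41 peaks in place of 24. TCTTT was at 50% of RpL genes within 20 bases and at 51.9% at the TSS nearest the summit. No paired analysis was possible because there is only 1 group. Scores carry no read counts, so no limit of detection per gene could be set.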
